A study of Mus musculus with 12 samples.

Results

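Egr1, Egr2, Egr3, Klf2, Klf4, Klf6, Klf10, Myc, Ier2 and Ier3 are 10 early genes whose transcripts can change soon after a stimulus. Every probe set whose annotation named 1 of them was taken, which gave 17 of the 45101 probe sets on the array and 10 of the 18193 genes measured. Each gene was read from its brightest probe set, and the other probe sets of Egr2, Egr3, Klf4 and Klf6 are given beside it. The study asked how polyglutamine-expanded huntingtin, the protein altered in Huntington's disease, alters the response to heat shock. It used 2 striatal cell lines from knock-in mouse embryos. STHdhQ7/Q7 cells, called Q7 cells here, carry wild-type huntingtin alleles, and STHdhQ111/Q111 cells, called Q111 cells, carry the expanded allele on both copies. Both lines were grown at 33 °C in serum-containing medium with G418 and used up to passage 15. Untreated cells stayed at 33 °C, and heat-shocked cells were held at 42 °C for 6 h. Each of the 4 groups (Q7 untreated, Q7 heat shock, Q111 untreated and Q111 heat shock) had 3 Affymetrix mouse arrays. Each genotype was represented by 1 line, so the huntingtin allele and other differences between the lines cannot be told apart. Nothing in the labels says that arrays of a group came from separate cultures, so a p-value here reflects the spread between arrays, which may be technical.

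Early growth response (Egr) proteins are zinc finger transcription factors that growth factors and neuronal activity induce through ERK signalling and serum response factor (SRF). Krüppel-like factors (Klf) are a second zinc finger family acting on GC-rich promoters, Myc is a transcription factor of growth and ribosome production that binds DNA together with Max, and the immediate early response proteins Ier2 and Ier3 act in gene regulation and in cell survival. Many of these transcripts are short-lived, and heat shock factor 1 (HSF1) drives a separate set of genes, the chaperones, when cells are heated.

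RefSeq promoter entries (build GRCm38.p6) matched 5 of the 10 genes, Egr2, Klf2, Klf4, Klf6 and Ier3. Egr1, Egr3, Klf10, Myc and Ier2 had no match. Genome positions are given for these sequences only. The 250 bases before the start are shown for Klf2, Klf4 and Ier3, which had the lowest adjusted p between lines among the matched genes, and a site of 30 bases is shown for Egr2. Capitals mark motif matches that lie whole within the bases shown.
Klf2 (chr8:72318812-72319061, plus strand): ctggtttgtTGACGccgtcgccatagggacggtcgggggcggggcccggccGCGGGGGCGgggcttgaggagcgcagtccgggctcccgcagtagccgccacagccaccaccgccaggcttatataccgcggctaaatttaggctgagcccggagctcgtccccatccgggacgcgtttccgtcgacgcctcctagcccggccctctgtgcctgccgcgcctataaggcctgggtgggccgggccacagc
Klf4 (chr4:55532476-55532725, minus strand): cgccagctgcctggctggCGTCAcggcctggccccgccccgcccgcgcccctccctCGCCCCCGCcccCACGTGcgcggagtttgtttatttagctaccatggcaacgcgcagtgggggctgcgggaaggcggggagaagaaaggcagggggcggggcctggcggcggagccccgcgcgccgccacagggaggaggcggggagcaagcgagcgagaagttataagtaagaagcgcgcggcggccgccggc
Ier3 (chr17:35821463-35821712, plus strand): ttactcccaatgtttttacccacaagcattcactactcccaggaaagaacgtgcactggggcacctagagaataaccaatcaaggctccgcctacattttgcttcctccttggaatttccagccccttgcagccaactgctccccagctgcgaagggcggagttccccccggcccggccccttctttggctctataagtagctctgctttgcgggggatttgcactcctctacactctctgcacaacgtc
Egr2 (chr10:67537787-67537816, plus strand): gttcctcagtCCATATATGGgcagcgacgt

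Motifs were searched on both strands. The heat shock element, the HSF1 motif, was searched with 2 repeats (GAANNTTC or TTCNNGAA) and with 3, in which a further repeat of GAA or TTC follows in turn after 2 bases and which therefore holds the shorter form. With 3 repeats it was in none of the 9 windows of the matched genes and in 0.466% of all 32851 windows. With 2 repeats it was in 1 window, an Egr2 window, and in 12.8% of all. A CArG box, the SRF motif, was in 4 of the 5 Egr2 windows and in 1.47% of all windows. Some of these Egr2 windows overlap and hold the same box, CCATATATGG, and another holds CCTTTTTTGG, so the 4 are not separate sites. The Egr2 sequence shows the shared box in capitals. In the Klf2 sequence the capitals mark TGACG, the first 5 bases of the cAMP response element TGACGTCA, and the Egr site GCGGGGGCG. The Klf4 sequence carries the same pair on the other strand, as CGTCA and CGCCCCCGC, and the E-box CACGTG. Egr sites (GCGTGGGCG or GCGGGGGCG) were in 3.06% of all windows, E-boxes in 6.02%, TGACG in 17.8% and the whole TGACGTCA in 1.55%. Klf6 and an Egr2 window had an E-box too, other Egr2 windows held TGACG and CGTCA, and the Ier3 window matched none of the motifs. A match is a description of the letters and not evidence of binding.

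All values are log2 levels, and a change is a difference of mean log2 levels. All 10 genes were above background range, the highest value of bacterial control probe sets (5.14), on every array. The control probe sets for the 3' and 5' ends of actin, whose difference grows as RNA is degraded, moved with heat shock. That difference was 0.54 ± 0.16 (SD, n = 3) in untreated and 1.48 ± 0.12 in heat-shocked Q7 cells, and 0.72 ± 0.36 and 1.25 ± 0.23 in Q111 cells. The median level over genes also fell with heat shock, so centring each array on its median adds 0.35 to every heat shock change in Q7 cells and 0.73 in Q111 cells, and 0.37 to their difference. Where this scaling altered a direction or a call is given with the gene. Markers of cell types differed between lines and moved with heat shock. At 33 °C 4 of 5 measured progenitor markers were lower in Q111 cells, against 5.68% of all genes. Mean levels in Q7 and Q111 cells were 9.28 and 5.68 for Nes and 10.60 and 4.71 for Sox2, and Msi1, at 7.75 and 8.14, was not called. Of 7 striatal neuron markers only Tac1, at 7.38 and 3.28, was called at 33 °C, and Drd2 was in background range on all 12 arrays. With heat shock in Q111 cells 4 of 8 neuron, 3 of 7 striatal neuron and 3 of 6 astrocyte markers rose, against 20.0% of all genes. In Q7 cells these counts were 0, 1 and 1, against 12.3%. In Q111 cells 2 of 6 endothelial and 2 of 6 microglia and macrophage markers rose too, and 0 of either did in Q7 cells. Of 5 progenitor and 5 oligodendrocyte markers 0 rose in Q111 cells, and of 6 fibroblast markers 1 did. Above background range on all 12 arrays were only 1 of the 8 neuron, 1 of the 7 striatal neuron and 2 of the 6 astrocyte markers. Mean Snap25, Syt1 and Stmn2 were 3.78, 4.08 and 4.63 in untreated Q111 cells, below the background bound. Tac1 was below it at 3.28 untreated and 4.39 heated. Map2, above the bound on every array, had means of 8.88 untreated and 8.20 heated in Q111 cells. Drd1 went from a mean of 4.58 in untreated Q111 cells, below the background bound, to 6.93. Among astrocyte markers Gfap was in background range throughout, while Slc1a3, at 7.86 and 9.83 untreated, was higher in Q111 cells and fell with heat shock in both lines. In background range on every array were 5 of 6 endothelial and 4 of 5 oligodendrocyte markers, and 2 of 6 microglia and macrophage markers. The fibroblast collagen Col1a2 was at 9.47 and 12.96. The log2 of the summed levels of 5 progenitor markers ran from 11.54 to 11.79 in untreated and 11.75 to 11.88 in heated Q7 cells, and from 8.65 to 8.77 and 7.36 to 7.75 in Q111 cells. For 6 fibroblast markers, of which Lum and Thy1 were in background range throughout, it ran from 12.87 to 13.15 and 12.41 to 12.60 in Q7 cells, and from 14.19 to 14.26 and 12.90 to 13.42 in Q111 cells. The sums follow their brightest genes, and single markers could go another way. With heat shock mean Nes went from 9.28 to 7.63 in Q7 cells. In Q111 cells Msi1 went from 8.14 to 6.15 and Dcn, a fibroblast marker, from 8.87 to 9.98. With bulk RNA, fewer cells of a type and less RNA per cell cannot be told apart, and the part of these markers in the results was not tested.

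The change after 6 h at 42 °C differed between the lines for Klf4, Myc and Ier3, and was not shown to differ for the other 7 genes. In Q7 cells Egr3, Klf2, Myc and Ier3 fell and none rose. In Q111 cells Klf4 and Myc rose and none fell. Klf4 and Myc started lower in Q111 cells at 33 °C, and after heat shock Egr2, Klf2, Klf6 and Ier3 were higher in Q111 cells while Klf4 was still lower. Of these 16 called changes, 5 were called under every alternative processing described below. With the actin difference as a covariate 0 of the falls in Q7 cells were called. The differences of Klf4 and Ier3 were not called without 9 and 10 of the 12 single arrays.

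The counts stand beside those of all genes, called with limma at an adjusted p under 0.05. In Q7 cells 4 of 10 genes were lower, against 18.1% of all genes, and 0 were higher, against 12.3%. In Q111 cells 2 were higher, against 20.0%, and 0 were lower, against 28.2%. The difference between the heat shock changes of the lines (Q111 minus Q7) was called for Klf4, Myc and Ier3, all positive. That is 3 of 10, against 1.21% of all genes called in that direction and 4.51% in the other. At 33 °C 2 genes were lower in Q111 cells, against 5.68%, and 0 were higher, against 5.11%. After heat shock 4 were higher, against 6.58%, and 1 was lower, against 15.5%. The median change of the 10 genes was -0.36 in Q7 cells and 0.25 in Q111 cells, and the median difference was 0.88; over all genes these medians were 0.0026, -0.018 and -0.0065. The comparisons share arrays, so they are not independent of one another. The heated and untreated arrays did not overlap for 6 of the 10 genes in Q7 cells (48.8% of all genes) and for 5 in Q111 cells (54.7%). The lines did not overlap for 3 at 33 °C (27.1%) and for 8 after heat shock (37.2%). Where probe sets were fitted one by one, the called share of all of them, in either direction, was 28.8% in Q7 cells, 44.0% in Q111 cells, 3.88% for the difference, 8.54% at 33 °C and 18.4% after heat shock. Medians and counts are descriptions, since the genes were chosen with earlier results of these data known.

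**Figure D1:**
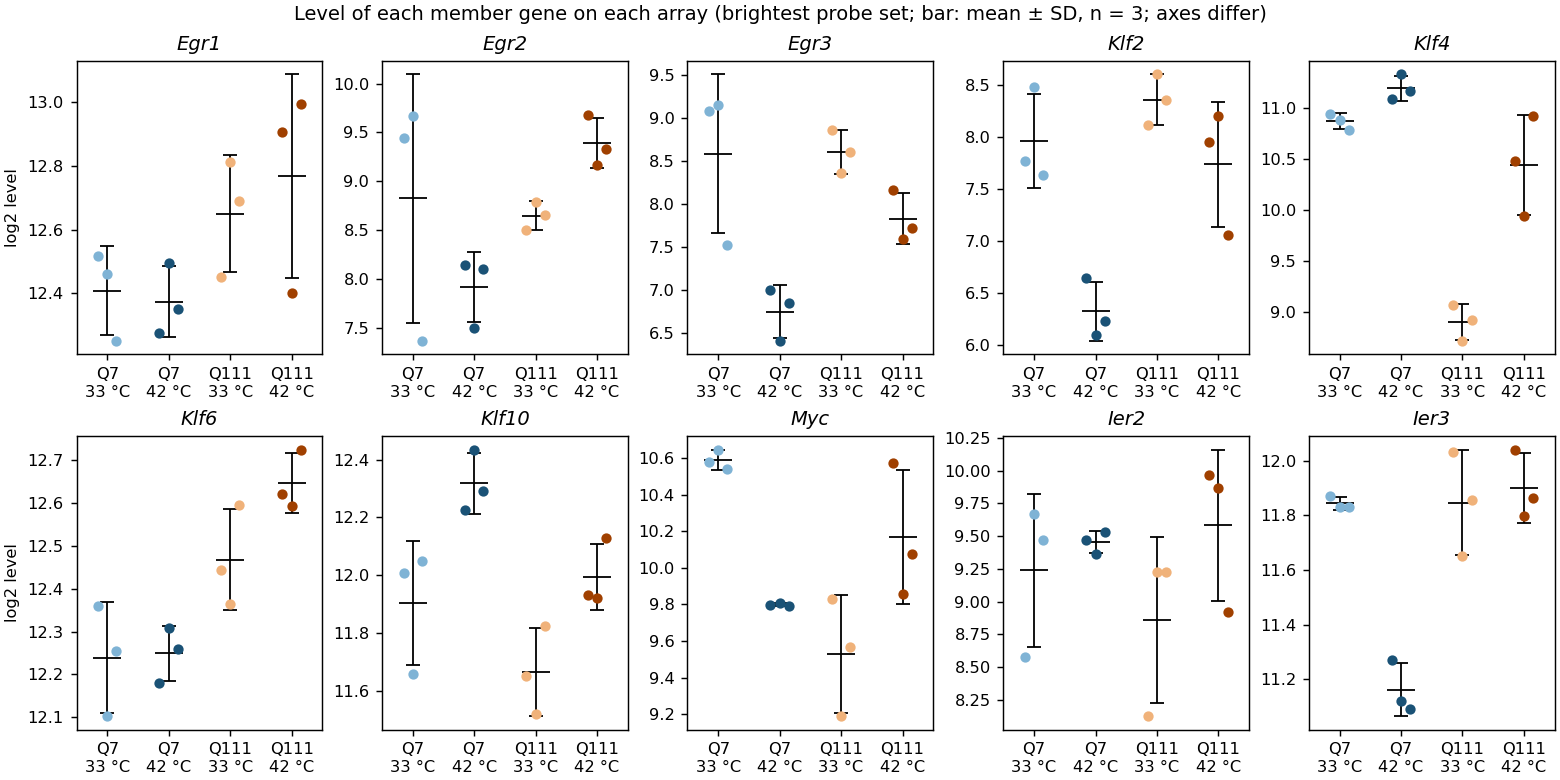
Log2 level of each of the 10 early genes (y axis of each panel) on the 12 arrays, by group (x axis); points are arrays, bars are the mean ± SD (n = 3), and the y axes differ. Klf4 and Myc are lower in untreated Q111 than in untreated Q7 cells on every array, and the third untreated Q7 array is apart from the other two for Egr2 and Egr3.

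Among the Egr genes, Egr3 fell with heat shock in Q7 cells, Egr2 moved in opposite directions in the lines without passing the test, and Egr1 stayed within a narrow range. Egr1, the best-known growth factor and activity-induced member, had levels of 12.52, 12.46 and 12.25 in untreated and 12.28, 12.50 and 12.35 in heat-shocked Q7 cells. In Q111 cells the levels were 12.45, 12.81 and 12.69 untreated and 12.91, 12.40 and 12.99 after heat shock. The groups overlapped in all comparisons, and the 12 arrays spanned 0.74. The heat shock change was -0.035 in Q7 cells (95% interval -0.42 to 0.35) and 0.12 in Q111 cells (-0.27 to 0.50), neither called. After heat shock the Egr1 level differed by 0.39 between lines (Q111 minus Q7), with an adjusted p of 0.134. Median centring gave a Q7 change of 0.32, not called, and called values of 0.84 for the Q111 change (adjusted p = 0.00504) and 0.77 between lines after heat shock (adjusted p = 0.0228).

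Egr2, a factor of nerve myelination and hindbrain patterning, read 9.44, 9.67 and 7.36 on the untreated Q7 arrays and 8.14, 7.50 and 8.10 after heat shock. In Q111 cells it read 8.50, 8.79 and 8.66 untreated and 9.68, 9.17 and 9.33 after heat shock. The third untreated Q7 array was the lowest of all 12, and the Q111 groups did not overlap. Heat shock changed Q7 levels by -0.91 (SE 0.48, adjusted p = 0.182). The Q111 change was 0.74 (SE 0.48, adjusted p = 0.219). Their difference was 1.65 (SE 0.67, adjusted p = 0.187). After heat shock Egr2 was 1.48 higher in Q111 cells (SE 0.48, 2.79-fold, adjusted p = 0.0465). Without single arrays this adjusted p ran from 0.000677 to 0.115, and the call was lost without 9 of the 12. The change in Q7 cells was -1.64 (adjusted p = 0.000621) and the difference 2.38 (adjusted p = 0.00575) without the third untreated Q7 array. Without it the Q111 change was called too (adjusted p = 0.0134), and the line difference at 33 °C moved from -0.18 to -0.91 (adjusted p = 0.0315). Median centring gave a called Q111 change of 1.47 (adjusted p = 0.00821). The second Egr2 probe set gave changes of -0.79 and 0.81, neither called. Its line difference after heat shock was 1.27 (adjusted p = 0.0899), not called. For the brightest probe set that adjusted p was 0.0516 with every probe set fitted. The mean of both gave 1.37 (adjusted p = 0.0569).

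Egr3, which acts in muscle spindles and in lymphocytes, read 9.08, 9.15 and 7.52 on the untreated Q7 arrays and 6.999, 6.41 and 6.84 after heat shock. The Q111 levels were 8.86, 8.35 and 8.60 untreated and 8.16, 7.59 and 7.73 after heat shock. Heated and untreated arrays did not overlap in either line. In Q7 cells Egr3 fell by 1.83 (SE 0.38, 3.56-fold, adjusted p = 0.00337) and was at -2.36 without the third untreated array. The Q111 change was -0.78 (SE 0.38, adjusted p = 0.107; 0.0123 without the third untreated Q7 array). The difference between lines was 1.05 (SE 0.53, adjusted p = 0.283), which is not called, so the changes are not shown to differ; without the third untreated Q7 array it was 1.59 (adjusted p = 0.0273). Between lines after heat shock Egr3 differed by 1.08 (adjusted p = 0.0623), and by 1.45 after median centring (adjusted p = 0.00835). The other Egr3 probe set was dim, with a mean of 6.21, and changed by 0.066 and 0.22, neither called. Its line difference after heat shock was -0.063, not called.

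Of the Krüppel-like factors, Klf2 fell in Q7 cells, Klf4 rose in Q111 cells from a low level, and the brightest probe sets of Klf6 and Klf10 did not pass the heat shock tests. Klf2, an endothelial and T cell quiescence factor, read 7.77, 8.48 and 7.64 on the untreated Q7 arrays and 6.64, 6.09 and 6.23 after heat shock. In Q111 cells it read 8.12, 8.60 and 8.36 untreated and 7.95, 8.20 and 7.06 after heat shock. All heated Q7 arrays were below all others, and the third heated Q111 array was the lowest of that line. Klf2 fell by 1.64 in Q7 cells (SE 0.31, 3.12-fold, adjusted p = 0.00202). The Q111 change was -0.62 (SE 0.31, adjusted p = 0.116), and it turned to 0.11 after median centring. The difference of 1.02 was not called (SE 0.44, adjusted p = 0.206), but was with median centring (1.39, adjusted p = 0.03) and without the third heated Q111 array (1.36, adjusted p = 0.0473). After heat shock Klf2 was 1.42 higher in Q111 cells (SE 0.31, 2.67-fold, adjusted p = 0.00678), a call that every alternative kept.

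Klf4, a factor of epithelial differentiation and of induced pluripotency, read 10.94, 10.88 and 10.79 on the untreated Q7 arrays and 11.09, 11.33 and 11.17 after heat shock. In Q111 cells the readings were 9.07, 8.72 and 8.92 untreated and 10.48, 9.94 and 10.92 after heat shock. Every heated Q111 array was above every untreated one, and the untreated Q111 arrays were below all others. Klf4 rose by 1.54 in Q111 cells (SE 0.21, 2.91-fold, adjusted p = 0.00019). The Q7 change was 0.32 (SE 0.21, adjusted p = 0.294), and the difference was 1.22 (SE 0.30, adjusted p = 0.0398). At 33 °C Klf4 was lower in Q111 cells by 3.91-fold, a log2 change of -1.97 (SE 0.21, adjusted p = 7.1e-05), and after heat shock by 1.68-fold, -0.75 (SE 0.21, adjusted p = 0.0269).

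The Klf4 rise in Q111 cells and the deficit at 33 °C were called under every alternative. Calls for the difference and for the lines after heat shock were less firm. The adjusted p of the difference ran from 0.00809 to 0.101 without single arrays and was above 0.05 for 9 of 12. It was 0.13 with the actin covariate, 0.0513 with arrays centred on ribosomal protein genes and 0.0505 with every probe set fitted. The line difference after heat shock was -0.37 (adjusted p = 0.284) after median centring, and its call was lost without 5 of the 12 arrays. The second Klf4 probe set gave changes of -0.31 in Q7 cells, not called, and 0.67 in Q111 cells (adjusted p = 0.00848), with a difference of 0.97 (adjusted p = 0.0483). The mean of both probe sets changed by 0.0081 in Q7 cells, so the direction there rests on the probe set. The second probe set had a line difference of -1.997 at 33 °C (adjusted p = 1.32e-05) and of -1.02 after heat shock (adjusted p = 0.00168). Both probe sets thus showed the lower Klf4 of Q111 cells.

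Klf6, a widely expressed factor and tumour suppressor candidate, read 12.36, 12.10 and 12.25 in untreated and 12.18, 12.31 and 12.26 in heat-shocked Q7 cells. It read 12.44, 12.36 and 12.60 in untreated and 12.62, 12.59 and 12.72 in heat-shocked Q111 cells. The heat shock changes were 0.010 and 0.18, neither called, and the Q111 change was 0.91 after median centring (adjusted p = 0.00144). After heat shock the lines did not overlap and Klf6 was 0.40 higher in Q111 cells (SE 0.12, adjusted p = 0.0406), a call lost without 8 of the 12 arrays. Of the other 4 Klf6 probe sets, 1 rose by 0.58 (adjusted p = 0.0326) and another by 0.42 (adjusted p = 0.0238) with heat shock in Q111 cells, and the remaining pair was not called there. The same pair that rose was also higher in Q111 cells after heat shock, by 0.87 and 0.63.

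Klf10, a TGF-beta-inducible repressor, read 12.01, 11.66 and 12.05 in untreated and 12.23, 12.43 and 12.29 in heat-shocked Q7 cells. In Q111 cells it read 11.65, 11.52 and 11.82 untreated and 11.93, 11.92 and 12.13 after heat shock. In both lines the heated arrays were above the untreated ones. The changes were 0.41 (SE 0.15, adjusted p = 0.0547) and 0.33 (SE 0.15, adjusted p = 0.086), and their difference was -0.084 (95% interval -0.54 to 0.37). Median centring gave called changes of 0.76 in Q7 cells (adjusted p = 0.0181) and 1.06 in Q111 cells (adjusted p = 0.00133), and turned the difference to 0.29 and the line difference after heat shock from -0.32 to 0.054, neither called.

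**Figure D2:**
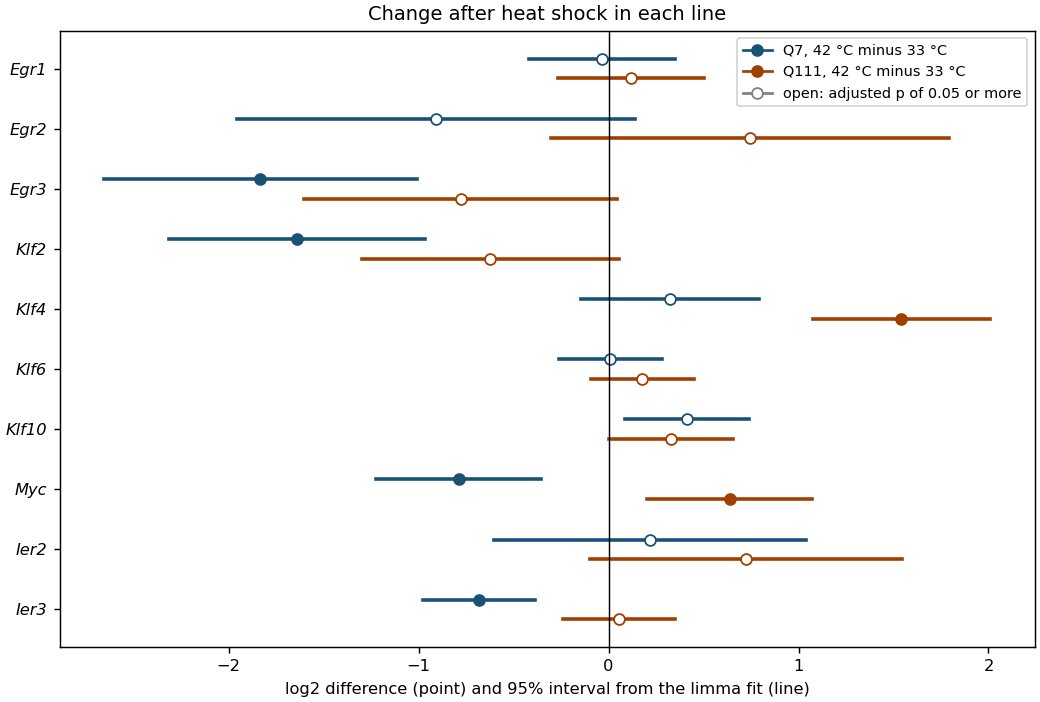
Heat shock change (log2, x axis) of each early gene in Q7 and Q111 cells, with 95% intervals from the limma fit; open points were not called. Klf4 and Myc lie to the right of 0 in Q111 cells, and Egr3, Klf2, Myc and Ier3 lie to the left in Q7 cells.

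Myc moved in opposite directions in the lines. In Q7 cells it read 10.58, 10.65 and 10.54 untreated and 9.80, 9.81 and 9.79 after heat shock. In Q111 cells it read 9.83, 9.19 and 9.57 untreated and 10.57, 9.86 and 10.07 after heat shock. No pair of groups compared overlapped, the 3 heated Q7 arrays were within 0.01 (SD) of their mean, and the Q111 groups spread more, with SDs of 0.32 and 0.37. Heat-shocked Q7 cells had a Myc level that fell by 0.79 (SE 0.20, 1.73-fold, adjusted p = 0.0106), and in Q111 cells Myc rose by 0.64 (SE 0.20, 1.56-fold, adjusted p = 0.0208). The difference was 1.43 (SE 0.28, adjusted p = 0.0162), with an adjusted p of 0.0505 without the third heated Q7 array. At 33 °C Myc was lower in Q111 cells by 2.08-fold, -1.06 (SE 0.20, adjusted p = 0.00401), and every alternative kept this call. After heat shock the line difference was not called (0.37, 95% interval -0.067 to 0.80), but was with median centring (0.75, adjusted p = 0.0285).

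The fall of Myc in Q7 cells depended on the scaling and the actin term. After median centring it was -0.44 (adjusted p = 0.141), and with the actin difference as a covariate it was 0.034 (adjusted p = 0.977). The rise in Q111 cells was 0.36 (adjusted p = 0.145) when arrays were centred on ribosomal protein genes, 0.44 (adjusted p = 0.0764) without the first heated Q111 array and 0.47 (adjusted p = 0.0845) without the second untreated one. Fitted on the Q111 arrays alone, the rise was 0.64 (SE 0.25, adjusted p = 0.0875), not called. With the actin covariate the difference between lines was 1.07 (adjusted p = 0.0466).

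Ier3, a stress and NF-kappaB-induced survival protein, fell in Q7 cells and did not pass the test in Q111 cells, while Ier2 passed no test on the levels as deposited with all 12 arrays weighted alike. Ier3 read 11.87, 11.83 and 11.83 in untreated and 11.27, 11.12 and 11.09 in heat-shocked Q7 cells, and 12.03, 11.65 and 11.86 untreated and 12.04, 11.80 and 11.86 heated in Q111 cells. The heated Q7 arrays were below all others. Ier3 fell by 0.68 in Q7 cells (SE 0.13, 1.60-fold, adjusted p = 0.0027) and changed by 0.054 in Q111 cells (95% interval -0.24 to 0.35). The difference was 0.74 (SE 0.19, adjusted p = 0.0464); without single arrays the adjusted p ran from 0.0432 to 0.127 and was above 0.05 for 10 of 12. It was 0.157 with the actin covariate, 0.0614 with ribosomal centring and 0.064 with every probe set fitted. The levels were nearly equal at 33 °C, with a change of 0.0023 between lines. After heat shock Ier3 was 0.74 higher in Q111 cells (SE 0.13, 1.67-fold, adjusted p = 0.00242), and every alternative kept this call. With median centring the Q7 change was -0.33 (adjusted p = 0.153) and the Q111 change a called rise of 0.78 (adjusted p = 0.00218).

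Ier2, an early DNA-binding response protein, read 8.57, 9.67 and 9.47 untreated and 9.47, 9.37 and 9.53 heated in Q7 cells, and 8.12, 9.23 and 9.23 untreated and 9.97, 9.87 and 8.92 heated in Q111 cells. The first untreated array was the lowest in both lines. The changes of 0.22 and 0.72 had adjusted p of 0.718 and 0.13, and the arrays of the groups overlapped in every comparison. The Q111 change was called with median centring (1.45, adjusted p = 0.00176), quantile normalization (1.18, adjusted p = 0.0178) and array weights (0.94, adjusted p = 0.0147), and without the third heated Q111 array (1.06, adjusted p = 0.0349).

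**Figure D3:**
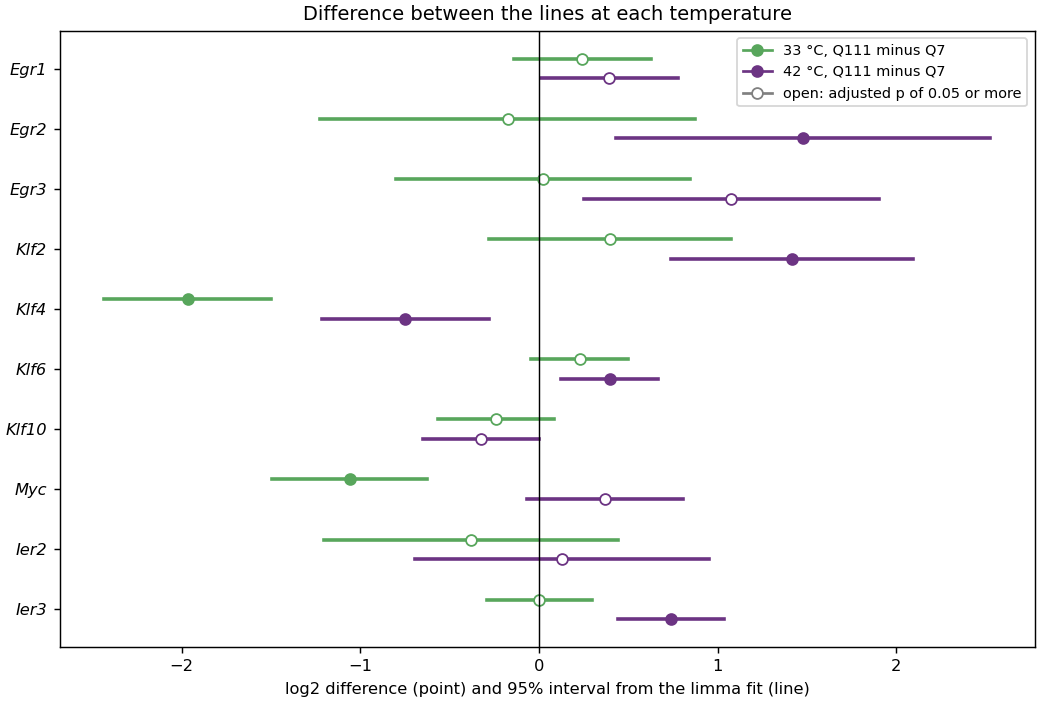
Q111 minus Q7 level (log2, x axis) of each early gene at 33 °C and after heat shock, with 95% intervals; open points were not called. Klf4 and Myc are below 0 at 33 °C, and Klf2 and Ier3 are above 0 after heat shock.

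**Figure D4:**
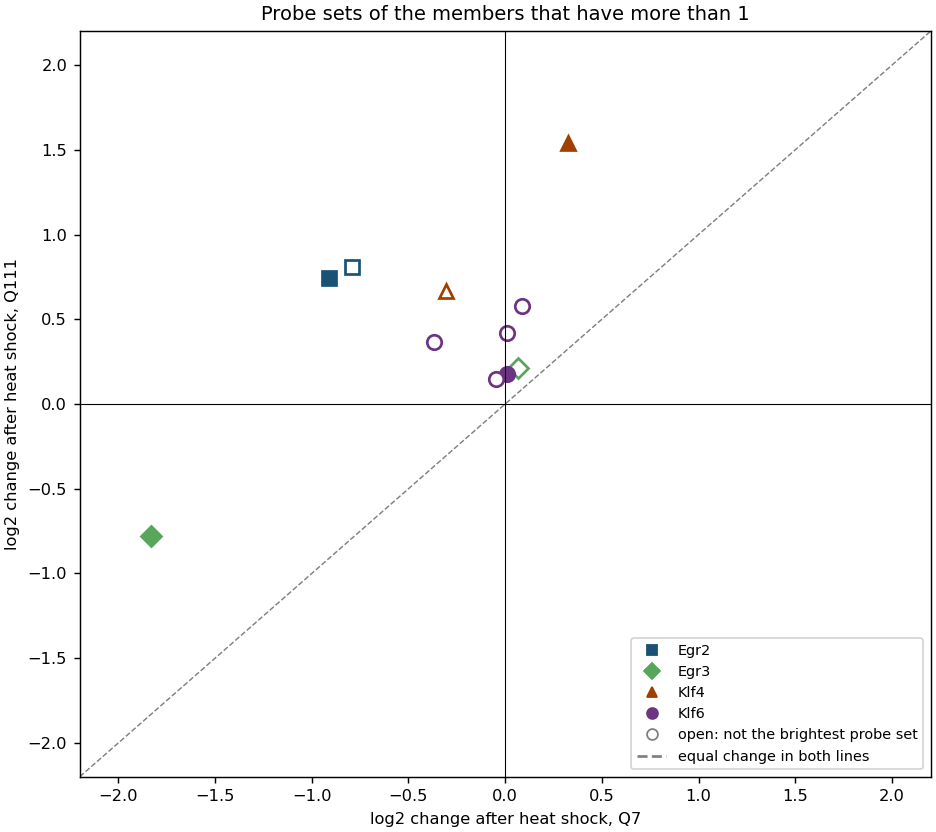
Heat shock change (log2) in Q7 cells (x axis) and Q111 cells (y axis) of every probe set of Egr2, Egr3, Klf4 and Klf6; filled symbols are the brightest probe sets and the dashed line marks equal changes. The 2 Egr2 probe sets lie close together in each line, while the brighter Egr3 probe set is at -1.83 and the dimmer one at 0.066 in Q7 cells.

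The actin difference touched the heat shock calls. Fitted with it as a covariate, 0 of the 4 falls in Q7 cells were called. Egr3 was at -1.10 (SE 0.74, adjusted p = 0.537), Klf2 at -1.43 (SE 0.64, adjusted p = 0.297) and Ier3 at -0.26 (SE 0.24, adjusted p = 0.671). These SEs were larger than without the covariate (0.38, 0.31 and 0.13), and Klf2 was at -1.64 without it. In Q111 cells Klf4 was at 1.68 (adjusted p = 0.0046) and Myc at 1.10 (adjusted p = 0.00465), still called. The part of RNA quality in the falls was not tested further. Heated and untreated Q7 arrays did not overlap in the actin difference, so in that line it can hardly be told apart from heat shock. After median centring 8 of the 10 genes were called higher in Q111 cells and 2 were called lower in Q7 cells. That scaling adds 0.73 to the change of every gene in Q111 cells and 0.35 in Q7 cells. The share of all genes called under it is not given, so these counts are not read as a trait of the 10 genes.

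Genes around these 10 were counted by list, beside the shares of all genes. Over all genes 12.3% rose and 18.1% fell in Q7 cells, and 20.0% rose and 28.2% fell in Q111 cells. Of 18 other immediate early genes, 10 rose and 2 fell in Q7 cells, and 10 rose and 1 fell in Q111 cells. Atf3, a stress-induced repressor, rose by 2.37 in Q7 and 3.32 in Q111 cells (adjusted p = 0.000162 and 1.44e-05), Fos, the AP-1 subunit, by 2.64 and 2.40, and Btg2, an antiproliferative gene, by 2.25 and 1.53. Maff, a small Maf factor, rose by 0.69 and 2.40, and was the only 1 of the 18 with a called difference (1.71, adjusted p = 0.00849). Of all genes 1.21% had a difference called in that direction. Of 17 measured genes of the ERK and SRF input, 8 fell and 1 rose in Q7 cells, and 12 fell and 2 rose in Q111 cells. The SRF coactivator Mrtfa was lower in both lines, at changes of -1.71 and -3.59 (difference -1.88, adjusted p = 0.0323). The kinase Map2k5 changed by -2.81 and -2.73 and the SRF partner Elk1 by -1.42 and -2.51, all called. Rps6ka5, a stress-activated kinase that phosphorylates histones and Creb, changed by -0.11 in Q7 cells, not called, and by -2.13 in Q111 cells (difference -2.02, adjusted p = 0.00563).

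Among 17 measured other family genes (Egr4, other Klf genes, Mycn, Mycl, Ier5 and Ier5l), 1 rose and 2 fell in Q7 cells and 2 rose and 5 fell in Q111 cells. Over all genes 12.3% rose and 18.1% fell in Q7 cells, and 20.0% rose and 28.2% fell in Q111 cells. The counts of these family genes are therefore not read as a trait of the family. Klf13 changed by -1.99 in Q111 cells (-0.61 in Q7 cells, not called), Klf7 by -1.49 (-0.85, not called) and Klf16 by -1.17 (-0.70, called). Ier5 rose by 0.79 and 0.65. In the Max network (9 genes), 2 rose and 0 fell in Q7 cells, and 3 rose and 5 fell in Q111 cells. Mxd1, a Max partner that opposes Myc, rose by 2.28 and 1.95, and Mlx by 1.24 and 0.99. The repressor Mnt fell by 1.79 in Q111 cells, was -0.52 in Q7 cells, not called, and had a called difference (-1.27, adjusted p = 0.0331). Mlxip fell by 1.44 in Q111 cells.

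Of 18 Myc target genes, 8 fell and 1 rose in Q7 cells, 5 fell and 2 rose in Q111 cells, and at 33 °C 3 were lower in Q111 cells. Over all genes 18.1% fell and 12.3% rose in Q7 cells, and 28.2% fell and 20.0% rose in Q111 cells. At 33 °C 5.68% of all genes were lower in Q111 cells. Cad, of pyrimidine synthesis, was lower at -1.72 in Q7 and -1.80 in Q111 cells. The nucleolar genes Ncl (-1.39 and -1.17) and Fbl (-0.87 and -0.53) and Srm, of spermidine synthesis (-1.13 and -0.63), fell in both lines too. No target had a called difference between the heat shock changes of the lines, against 1.21% of all genes higher and 4.51% lower. Of 9 measured Egr cofactors and targets, 4 rose and 4 fell in each line: Pdgfa rose by 1.45 and 0.93 and Icam1 by 0.84 and 1.52, while Tgfb1 changed by -1.36 and -2.32 and F3 by -1.03 and -2.18. Of 10 genes listed as AU-rich element decay factors, not all of which shorten transcript lives, 2 rose and 1 fell in each line. Zfp36 rose by 1.39 and 0.86, Tial1 by 0.76 and 0.40, and Hnrnpd changed by -0.85 and -0.74. Median changes in Q7 and Q111 cells, beside 0.0026 and -0.018 over all genes, were 0.98 and 0.77 for the other immediate early genes, -0.92 and -1.16 for the ERK and SRF input, and -0.16 and -0.15 for the other family genes. They were 0.071 and -0.44 for the Max network, -0.42 and -0.14 for the Myc targets, -0.18 and -0.17 for the Egr cofactors and targets, and 0.23 and -0.070 for the decay factors.

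**Figure D5:**
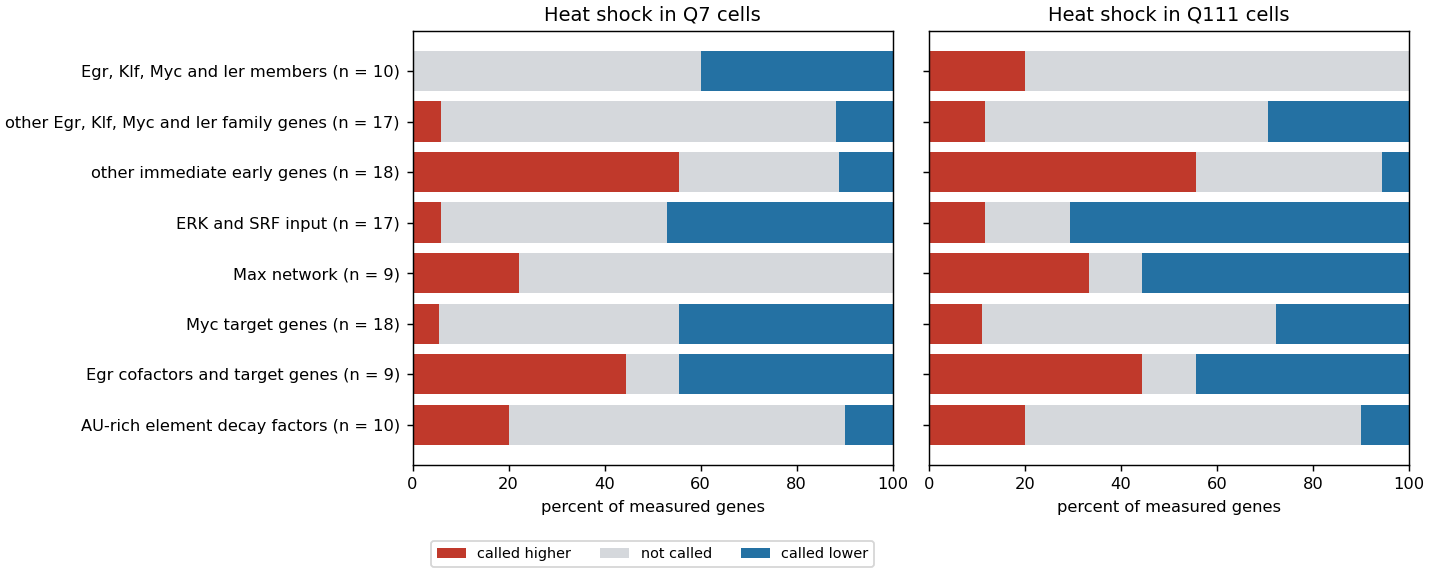
Percent of measured genes of each list called higher, not called or called lower with heat shock in Q7 and Q111 cells, with the number measured beside each name. Of the other immediate early genes 10 of 18 are higher in each line, and of the ERK and SRF input 8 of 17 are lower in Q7 and 12 of 17 in Q111 cells. Over all genes 12.3% are higher and 18.1% lower in Q7 cells, and 20.0% higher and 28.2% lower in Q111 cells.

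Genes whose levels followed a member most closely over the 12 arrays were found by Pearson correlation among 11559 genes above background range on average. The closest were Itih3 (r = 0.859) for Egr1, Pdk4 (r = 0.977), Mcts2 (0.962) and Snhg6 (0.959) for Klf4, Gap43 (r = 0.856) for Myc, and Hs6st2 (r = 0.951) for Ier3. The arrays share groups, heat shock and scaling, so these are descriptions of likeness without a test.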

How the data were processed

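RNA of 12 samples was hybridised to Affymetrix mouse arrays, and the authors deposited 1 log2 value for each probe set, computed with RMA per the submitters' processing notes; as a method RMA corrects background, normalizes quantiles and summarizes probes. Its software version is not given in the sources used here. Of 45101 probe sets, 64 were controls, 34945 had 1 gene name, 932 had several and 9160 had none here; only the first kind was used. Each of 18193 genes was read from its brightest probe set, by mean over the arrays. limma 3.58.1 in R 4.3.3 modelled the 12 arrays by 4 group means, leaving 8 residual degrees of freedom, with two-sided moderated tests and Benjamini-Hochberg adjustment over all genes, called at an adjusted p under 0.05. A fit on all 34945 probe sets gave each probe set its own value. The method was tested on simulated data with independent errors. These held no scaling shift between arrays and no RNA quality difference, so the test does not bear on those. Scanner files were not used, and the number of arrays limits the precision.

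The 10 genes and the lists were chosen with earlier results of these data known. Named were all 10 genes, up to 4 genes of each list (called, largest heat shock change), and the genes most like Egr1, Klf4, Myc and Ier3 (of 3 found for each). Replicate numbers come from the titles. They pair the untreated arrays of the lines (r = 0.516, 0.402 and 0.577 between deviations of same-numbered arrays) and no other pair of groups. Alternatives were other probe set rules, scalings, filters, variance models, covariates, blocks and left-out arrays.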

Additional observations from a re-analysis of the deposited data

Results flagged for a closer look

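The heat shock change differed between lines for 3 of the early genes, by limma's test of the difference itself. The difference (Q111 minus Q7) was 1.22 for Klf4, where the Q111 rise was called and the Q7 change was not, 1.43 for Myc, where the lines went opposite ways, and 0.74 for Ier3, where only the Q7 change was called. The adjusted p of 0.0398, 0.0162 and 0.0464 for Klf4, Myc and Ier3 stand beside ranges, without single arrays, of 0.00809 to 0.101, 0.011 to 0.0505 and 0.0432 to 0.127. The Klf4 and Ier3 differences were also not called with the actin covariate (0.13 and 0.157), with arrays centred on ribosomal protein genes (0.0513 and 0.0614) and with every probe set fitted (0.0505 and 0.064).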

How the results depend on the processing

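Of 16 called changes of single genes, 5 were called under every alternative: the Klf4 rise in Q111 cells, the lower Klf4 and Myc of Q111 cells at 33 °C, and the higher Klf2 and Ier3 after heat shock. Of 1250 values of single genes under alternatives 1094 kept direction and side of the threshold, 76 were weaker, 47 stronger and 33 reversed; causes were not tested. Array weights did not reach their convergence tolerance.

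Members called higher after heat shock (4) were 2 with the actin covariate, at an adjusted p under 0.01 and with every probe set fitted, 7 with array weights and median centring, and 2 to 4 without single arrays. Lower ones (1) were 0 at 0.01, with quantile normalization, median centring and only the groups compared, 2 with array weights, and 0 to 1 without single arrays. For the difference (3) they were 1 with the actin covariate, ribosomal centring and every probe set, 0 at 0.01, 6 with array weights, and 0 to 3 without single arrays. In Q111 cells those higher (2) were 1 at 0.01 and with ribosomal centring, 8 with median centring and 1 to 3 without single arrays; those lower (0) were 2 with ribosomal centring, 1 with only the groups compared and 0 to 1 without single arrays. In Q7 cells those higher (0) were 1 with array weights, brighter genes, genes above background, median centring and a variance trend, and 0 to 1 without single arrays; those lower (4) were 0 with the actin covariate and 2 with median centring.

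The replicate block gave 3 higher and 1 lower after heat shock (Egr2 and Klf6 lost at adjusted p = 0.0518 and 0.0546, Egr3 gained at 0.0497) and changed no other call. Within the untreated groups alone, an alternative chosen after seeing the data, the block gave -1.97 for Klf4 and -1.06 for Myc, both still called.

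Reversed values with median centring were 0.054 for Klf10 after heat shock, 0.29 for the Klf10 difference, 0.11 for Klf2 in Q111 cells and 0.32 for Egr1 in Q7 cells. Quantile normalization gave 0.10 for Klf2 in Q111 cells, -0.020 for Klf6 in Q7 cells and -0.013 for Egr3 at 33 °C. Egr3 at 33 °C was -0.12 with array weights and -0.095 with the mean of probe sets, which gave -0.062 for Klf6 in Q7 cells. Ribosomal centring gave -0.16 for Egr1, -0.22 for Ier3 and -0.097 for Klf6 in Q111 cells and -0.19 for Klf6 in Q7 cells, and the actin covariate gave 0.034 for Myc in Q7 cells.

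Without single arrays, reversals ran within -0.11 to 0.019 for Egr1, -0.12 to 0.43 for Ier2 and -0.058 to 0.071 for Klf6 in Q7 cells, -0.044 to 0.15 for Ier3 in Q111 cells, -0.16 to 0.040 for the Klf10 difference, -0.91 to 0.25 for Egr2, -0.51 to 0.31 for Egr3 and -0.091 to 0.10 for Ier3 at 33 °C, and -0.063 to 0.46 for Ier2 after heat shock.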
